A study of Mus musculus with 20 samples.

Results

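Transcripts of 7 mouse genes that depend on Wnt signalling or mark the pericentral zone of the liver lobule were followed in livers of mice labelled as liver knockout (KO) or wild type (WT) for the O-GlcNAc transferase OGT, the enzyme that attaches N-acetylglucosamine to intracellular proteins. The genes were chosen by name as Lgr5, Axin2, Tbx3, Rnf43, Znrf3, Lect2, Glul, Rgn, Slc1a2 and Rhbg. The rule selects features by gene symbol alone, but the list was drawn up with earlier results of these data known. Of the 10 symbols 7 had a named feature on the array, 1 feature each, out of 19505 genes tested. Rnf43, Glul and Rhbg were not listed under these symbols in the platform annotation used here and were not analysed here. The 4 groups, each of 5 arrays, were OGTL KO at 4 weeks of age (4w-KO), OGTL WT at 4 weeks (4w-WT), OGTL KO at 8 weeks (8w-KO) and OGTL WT at 8 weeks (8w-WT). RNA came from powdered snap-frozen liver of 5 mice per group, as the series text gives the number, and was measured on Clariom S Mouse arrays. The driver that removes Ogt in the liver, the strain and the sex of the mice are not stated in the sources used here. All values are log2 signals on the deposited scale, where a difference of 1 is a doubling of the signal if that scale is a plain log2, and a value after ± is an SD over 5 arrays.

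In the liver lobule, endothelial cells of the central vein secrete Wnt ligands and R-spondins that keep β-catenin active in the hepatocytes around the vein. R-spondins bind receptors of the LGR family, among them Lgr5, and thereby hold back the ubiquitin ligases Znrf3 and Rnf43, which remove Frizzled receptors from the cell surface. β-catenin then works with TCF/LEF factors on target genes. Some of these, such as Axin2 and Znrf3, limit the pathway in turn, and others, such as Glul, Rhbg, Slc1a2, Rgn and Lect2, serve nitrogen handling, metabolism or secretion in pericentral hepatocytes.

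The promoters of Lect2 and Slc1a2 are shown because both genes are described as hepatocyte targets of β-catenin and each holds a match to the TCF/LEF core letters CTTTGAT or their reverse complement ATCAAAG, in capitals below. Each sequence runs 5′ to 3′ on the strand of the gene over the 250 bases before and 50 bases after the start given in the RefSeq table, with coordinates of build GRCm38.p6.
Lect2, chr13:56548489-56548788, minus strand: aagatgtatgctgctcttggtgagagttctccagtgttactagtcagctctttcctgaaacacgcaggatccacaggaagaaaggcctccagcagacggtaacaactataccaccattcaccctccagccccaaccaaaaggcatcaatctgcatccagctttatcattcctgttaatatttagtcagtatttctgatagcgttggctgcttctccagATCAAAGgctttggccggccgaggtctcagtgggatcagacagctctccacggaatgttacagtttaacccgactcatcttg
Slc1a2, chr2:102706188-102706487, plus strand: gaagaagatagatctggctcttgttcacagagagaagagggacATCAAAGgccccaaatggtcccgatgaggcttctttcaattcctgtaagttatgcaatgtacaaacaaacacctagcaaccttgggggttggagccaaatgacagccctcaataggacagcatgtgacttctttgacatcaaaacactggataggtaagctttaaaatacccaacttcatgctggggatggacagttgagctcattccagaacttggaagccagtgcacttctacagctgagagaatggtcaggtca
The Lect2 match begins 32 bases before the start and the Slc1a2 match 207 bases before it. Of the 7 measured genes Axin2 also had an entry in the promoter table (chr11:108920099-108920398, plus strand), with 0 matches in the same window. These 7 letters, searched on both strands, occur in 1225 of the 32851 promoter windows of this length in the table, or 3.73%, so a match is a description of the letters and not a binding site. Promoters of Lgr5, Tbx3, Znrf3 and Rgn were not used here.

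The Ogt signal was checked against the genotype labels first. At 4 weeks it was 37.1% of WT in KO liver, a difference of -1.43 (SE 0.20, limma adjusted p = 8.82e-05), and the arrays of the groups did not overlap. In the liver labelled 8w-KO the Ogt signal was 83.2% of 8w-WT, a difference of -0.27 that was not called (adjusted p = 0.529), with overlapping arrays. Within the KO label Ogt averaged 9.81 ± 0.21 in 8w-KO and 8.14 ± 0.53 in 4w-KO liver, a difference of 1.67 (adjusted p = 9.46e-06), and the arrays did not overlap. Directions at 8 weeks are therefore those of the labelled groups. Array medians ran from 5.42 to 5.58. Skeletal muscle transcripts stood out in 3 arrays, where actin alpha 1 (Acta1) was 15.04 in 4w-KO replicate 4, 15.43 in 4w-KO replicate 5 and 15.89 in 4w-WT replicate 4, against 4.24 to 6.11 in the other 17. The mean level of 9 hepatocyte markers ran from 18.26 to 18.56 over all 20 arrays. A background level was taken from 1412 olfactory and vomeronasal receptor genes, at the 95th percentile of their group means. It was 5.04 in 4w-KO, 5.01 in 4w-WT, 5.02 in 8w-KO and 5.20 in 8w-WT liver, and the group means of all 7 genes lay above it. Lgr5, Axin2 and Tbx3 were the nearest to it. Rgn lay above 16, which a 16-bit scanner cannot reach on a log2 scale, and the sources used here do not say how such values arose. If the scale was stretched, fold differences and percentages of WT, those of Rgn above all, are stretched with it.

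**Figure D1:**
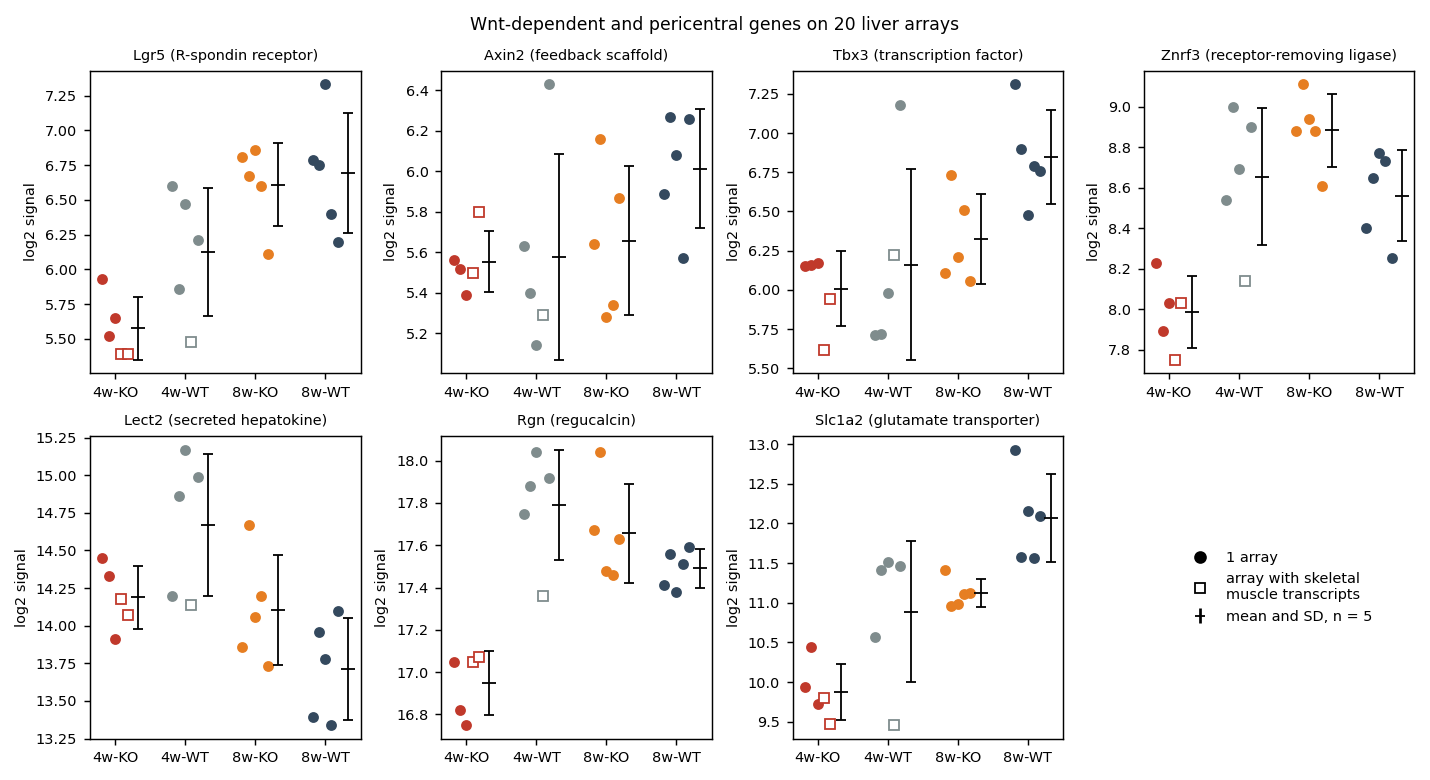
Log2 signal (y axis) of each of the 7 genes in the 4w-KO, 4w-WT, 8w-KO and 8w-WT groups (x axis), with 1 point per array, open squares for the 3 arrays with muscle transcripts, and the mean ± SD of 5 arrays, each panel on its own scale. Rgn in 4w-KO liver sits between 16.75 and 17.07, below every array of the other groups, and Slc1a2 is lower in KO than in WT liver at both ages on average.

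At 4 weeks, 3 of the 7 genes were called lower in KO than in WT liver, and 0 were called higher. Rgn was at 55.8% of the WT level, Znrf3 at 62.9% and Slc1a2 at 49.7%. The other 4, Lgr5, Axin2, Tbx3 and Lect2, also averaged lower but were not called, with differences of -0.55, -0.02, -0.15 and -0.48. Without 4w-WT replicate 5 the differences of Axin2 and Tbx3 changed sign, to 0.19 and 0.10. A gene is called when its limma p-value, after Benjamini-Hochberg adjustment over all 19505 genes tested, is below 0.05. By this rule 10.2% of all genes were called at 4 weeks and 5.48% were called lower. The median difference of the 7 genes was -0.55, beside 0.00 for all genes. In RNA from whole liver, fewer cells of a type and less RNA per cell cannot be told apart.

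Lgr5, the R-spondin receptor, gave 5.93, 5.52, 5.65, 5.39 and 5.39 on the 4w-KO arrays, against 6.60, 5.86, 6.47, 5.48 and 6.21 on the 4w-WT arrays. All KO arrays lay in the lower part of the range, and 2 WT arrays, replicates 2 and 4, overlapped with them. The difference was -0.55 (95% interval -1.003 to -0.09) with a limma adjusted p of 0.126. It was called without 4w-WT replicate 4, one of the arrays with muscle transcripts, at -0.71 (adjusted p = 0.0371). The lowest 4w-KO value, 5.39, was also that of arrays with muscle transcripts, replicates 4 and 5. The call was not made when all 3 muscle arrays were left out, at -0.59 (adjusted p = 0.155).

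Znrf3 encodes the ubiquitin ligase that clears Frizzled receptors and is itself induced by Wnt. It gave 8.23, 7.89, 8.03, 7.75 and 8.03 on the 4w-KO arrays, against 8.54, 9, 8.69, 8.14 and 8.90 on the 4w-WT arrays. Only the lowest WT array, replicate 4, reached into the KO range. The difference was -0.67 (SE 0.16, limma adjusted p = 0.00758), and without the 3 muscle arrays it was -0.73 (adjusted p = 0.0104).

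Axin2, a scaffold of the β-catenin destruction complex and a common readout of Wnt activity, gave 5.56, 5.52, 5.39, 5.50 and 5.80 on the 4w-KO arrays. On the 4w-WT arrays it gave 5.63, 5.40, 5.14, 5.29 and 6.43. The KO values lay inside the WT range, which was wide because replicate 5 stood high. The difference was -0.02 (95% interval -0.47 to 0.42, limma adjusted p = 0.965), and without WT replicate 5 it was 0.19 (adjusted p = 0.648).

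Tbx3 encodes a T-box transcription factor that is a β-catenin target in liver. It gave 6.15, 6.16, 6.17, 5.62 and 5.94 on the 4w-KO arrays, against 5.71, 5.72, 5.98, 6.22 and 7.18 on the 4w-WT arrays. The groups overlapped, and the same WT replicate 5 was the highest. The difference of -0.15 (95% interval -0.63 to 0.32, limma adjusted p = 0.776) was not called and was 0.01 without the 3 muscle arrays. Without WT replicate 5 it was 0.10 (adjusted p = 0.835).

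Lect2, a protein secreted by hepatocytes, gave 14.45, 14.33, 13.91, 14.18 and 14.07 on the 4w-KO arrays, against 14.20, 14.86, 15.17, 14.14 and 14.99 on the 4w-WT arrays. WT replicates 1 and 4 lay among the KO arrays and the other 3 lay above all of them. The difference was -0.48 (95% interval -0.93 to -0.04, limma adjusted p = 0.177).

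Rgn, the calcium-binding enzyme regucalcin, which acts in ascorbate synthesis, was the single gene of the 7 whose arrays did not overlap at 4 weeks, a pattern shown by 8.55% of all genes. It gave 17.05, 16.82, 16.75, 17.05 and 17.07 on the 4w-KO arrays, against 17.75, 17.88, 18.04, 17.36 and 17.92 on the 4w-WT arrays. The lowest WT array was again replicate 4. The difference was -0.84 (SE 0.14, limma adjusted p = 3.48e-04), and without the 3 muscle arrays it was -1.02 (adjusted p = 3.67e-04).

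Slc1a2, the glutamate transporter of pericentral hepatocytes, gave 9.94, 10.44, 9.73, 9.80 and 9.47 on the 4w-KO arrays, against 10.57, 11.41, 11.52, 9.46 and 11.47 on the 4w-WT arrays. The 4 WT arrays other than replicate 4 lay above every KO array, and replicate 4 lay just below the lowest of them. The difference was -1.01 (SE 0.32, limma adjusted p = 0.0486), close to the threshold. The call was lost when any of 4w-KO replicates 1, 3, 4 and 5 or 4w-WT replicates 1, 2, 3 and 5 was left out (adjusted p up to 0.133), and in a fit of the 4-week arrays alone (adjusted p = 0.104). Without the 3 muscle arrays the difference was -1.21 (adjusted p = 0.0120).

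In 4w-WT replicate 4, the array with the highest Acta1 signal, Lgr5, Znrf3, Lect2, Rgn and Slc1a2 were each at the lowest value of that group, and its part in the differences was not tested beyond the values given without it. The 4w-KO arrays with muscle transcripts, replicates 4 and 5, held the lowest 4w-KO values of Lgr5 (5.39), Znrf3 (7.75), Tbx3 (5.62) and Slc1a2 (9.47). Axin2 (5.80) and Rgn (17.07) were instead highest on 4w-KO replicate 5, and Lect2 was lowest on replicate 3 (13.91). Markers of other liver cells moved as well. Among endothelial markers 2 of 11, Stab2 and Ptprb (the Ptprb call was lost under 9 of 17 alternatives), were called lower in 4w-KO, with a mean level of 8.33 to 9.01 in 4w-KO and 8.62 to 9.13 in 4w-WT. Among macrophage markers 2 of 9, Cd9 and Gpnmb, were called higher in 4w-KO, with a mean level of 8.01 to 8.21 in 4w-KO and 7.42 to 7.65 in 4w-WT. Stellate and fibroblast markers had 0 of 10 called by limma, with 2 at an unadjusted p below 0.05. Hepatocyte markers had 0 of 9 called, also with 2 at an unadjusted p below 0.05, with a mean level of 18.26 to 18.46 in 4w-KO and 18.46 to 18.56 in 4w-WT. In that mean level every 4w-KO array lay below every 4w-WT array, the nearest being 18.461 and 18.463. The part of these cell types in the differences of the 7 genes was not tested.

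At 8 weeks, 0 of the 7 genes were called in either direction between the labelled groups, where 6.58% of all genes were called. Before adjustment 2 genes had a limma p below 0.05, Slc1a2 and Tbx3, both averaging lower in 8w-KO. The median difference of the 7 genes was -0.08, beside -0.04 for all genes.

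Slc1a2 gave 11.41, 10.96, 10.99, 11.11 and 11.13 on the 8w-KO arrays, against 12.93, 11.58, 12.16, 11.57 and 12.09 on the 8w-WT arrays. Every KO array lay below every WT array, which was so for no other of the 7 genes and for 6.1% of all genes in either direction. The level in 8w-KO was 51.9% of that in 8w-WT, a difference of -0.95 (95% interval -1.61 to -0.28) with a limma adjusted p of 0.0850. It was called in a fit of the 8-week arrays alone (adjusted p = 0.0259) and in the fit without the 3 muscle arrays of 4 weeks, which changes only the estimate of the spread (adjusted p = 0.0174).

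Tbx3 gave 6.11, 6.73, 6.21, 6.51 and 6.06 on the 8w-KO arrays, against 7.31, 6.90, 6.48, 6.79 and 6.76 on the 8w-WT arrays. KO replicates 2 and 4 reached into the WT range and the other 3 lay below it. The difference was -0.52 (95% interval -1.0003 to -0.05, limma adjusted p = 0.206).

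Axin2 gave 5.64, 6.16, 5.28, 5.34 and 5.87 on the 8w-KO arrays, against 5.89, 6.27, 6.08, 5.57 and 6.26 on the 8w-WT arrays. The groups overlapped, and the difference was -0.36 (95% interval -0.80 to 0.09, limma adjusted p = 0.387).

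Lgr5 gave 6.81, 6.67, 6.86, 6.60 and 6.11 on the 8w-KO arrays, against 6.79, 6.75, 7.33, 6.40 and 6.20 on the 8w-WT arrays. The KO arrays spanned nearly the same range as the WT arrays, apart from a high WT replicate 3. The difference was -0.08 (95% interval -0.54 to 0.37, limma adjusted p = 0.890).

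The remaining 3 genes averaged higher in 8w-KO than in 8w-WT, without a call. Znrf3 gave 8.88, 9.11, 8.94, 8.88 and 8.61 on the 8w-KO arrays, against 8.40, 8.65, 8.77, 8.73 and 8.25 on the 8w-WT arrays. All but KO replicate 5 lay above every WT array, and the difference was 0.32 (95% interval -0.0014 to 0.65, limma adjusted p = 0.260).

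Lect2 gave 13.86, 14.67, 14.06, 14.20 and 13.73 on the 8w-KO arrays, against 13.39, 13.96, 13.78, 13.34 and 14.10 on the 8w-WT arrays. The groups overlapped, with a difference of 0.39 (95% interval -0.06 to 0.84, limma adjusted p = 0.337). Rgn gave 17.67, 18.04, 17.48, 17.46 and 17.63 on the 8w-KO arrays, against 17.41, 17.56, 17.38, 17.51 and 17.59 on the 8w-WT arrays. KO replicate 2 was the highest, the groups overlapped, and the difference was 0.17 (95% interval -0.12 to 0.45, limma adjusted p = 0.563).

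Markers of other cell types differed widely between the labelled 8-week groups. Cholangiocyte markers had 7 of 9 called higher in 8w-KO, with a mean level of 6.57 to 9.07 in 8w-KO and 4.91 to 5.82 in 8w-WT. Stellate and fibroblast markers had 6 of 10 called higher, with a mean level of 8.92 to 10.24 in 8w-KO and 7.42 to 8.31 in 8w-WT. Macrophage markers had 5 of 9 called higher, with a mean level of 7.22 to 7.91 in 8w-KO and 7.08 to 7.28 in 8w-WT. Among endothelial markers 1 of 11, Pecam1, was called higher at 0.81 (limma adjusted p = 0.0358), a call lost under 8 of 17 alternatives. Hepatocyte markers again had 0 of 9 called, with 0 at an unadjusted p below 0.05. The part of these cell types in the values of the 7 genes was not tested.

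**Figure D2:**
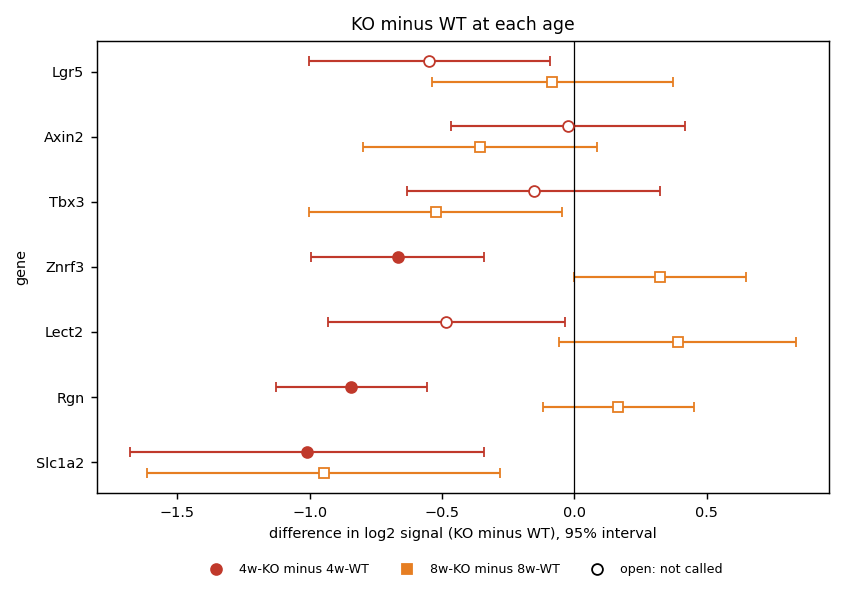
Difference in log2 signal of KO minus WT liver (x axis) for each of the 7 genes (y axis) at 4 and at 8 weeks, with the 95% interval, and open symbols where limma did not call the gene. Rgn and Znrf3 lie at -0.84 and -0.67 at 4 weeks and at 0.17 and 0.32 at 8 weeks, while Slc1a2 lies at -1.01 and -0.95.

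Whether the difference between KO and WT changed with age was tested as an interaction, in which the KO minus WT difference of the younger mice is taken from that of the older mice. It was called for 2 of the 7 genes, Znrf3 and Rgn, both with a more positive KO effect at 8 weeks. For all genes 3.05% were called and 2.05% were called in that direction. Znrf3 changed by 0.99 (SE 0.22, limma adjusted p = 0.0179) and Rgn by 1.01 (SE 0.19, adjusted p = 0.00622). Both calls held under every alternative tried, including each array left out in turn. Lect2 followed at 0.87 without a call (adjusted p = 0.134), and Lgr5 at 0.46 (adjusted p = 0.511). For Slc1a2 the interaction was 0.06 with a 95% interval of -0.88 to 1.01 (adjusted p = 0.969), an interval that includes a change of the size found for Znrf3. Axin2 and Tbx3 had interactions of -0.33 (adjusted p = 0.658) and -0.37 (adjusted p = 0.644). The median of the 7 genes was 0.46, beside -0.02 for all genes. The interaction uses the same arrays as the comparisons at each age and is not separate evidence for them.

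Within KO liver, 4 of the 7 genes were called higher at 8 than at 4 weeks and 0 were called lower. In the same comparison Ogt was higher by 1.67, so the groups differ in Ogt signal as well as in age. The genes called were Lgr5, Znrf3, Rgn and Slc1a2, and in each of the 4 every 8-week array lay above every 4-week array. For all genes 14.6% were called between the ages in KO, 7.85% were called higher, and 9.47% had arrays without overlap. Lgr5 averaged 6.61 ± 0.30 in 8w-KO and 5.58 ± 0.23 in 4w-KO, a difference of 1.03 (SE 0.22, limma adjusted p = 0.00235). Znrf3 averaged 8.88 ± 0.18 in 8w-KO and 7.99 ± 0.18 in 4w-KO, a difference of 0.90 (adjusted p = 4.17e-04). Rgn averaged 17.66 ± 0.23 in 8w-KO and 16.95 ± 0.15 in 4w-KO, a difference of 0.71 (adjusted p = 0.00105). The receptor, the ubiquitin ligase and the hepatocyte enzyme thus all stood higher in the older group. Slc1a2 averaged 11.12 ± 0.18 in 8w-KO and 9.88 ± 0.36 in 4w-KO, a difference of 1.24 (adjusted p = 0.0107). Axin2 at 0.10 (adjusted p = 0.819), Tbx3 at 0.32 (adjusted p = 0.424) and Lect2 at -0.08 (adjusted p = 0.858) were not called. The median of the 7 genes was 0.71, beside 0.02 for all genes.

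Within WT liver, Slc1a2 was called higher and Lect2 lower at 8 than at 4 weeks, and the other 5 genes were not called. Both pairs of groups did not overlap, as for 9.08% of all genes, and 8.94% of all genes were called. Slc1a2 averaged 12.07 ± 0.56 in 8w-WT and 10.89 ± 0.89 in 4w-WT, a difference of 1.18 (limma adjusted p = 0.0219). This call was lost without 4w-WT replicate 4, where the difference was 0.82 (adjusted p = 0.0549), without 4w-WT replicate 1 (adjusted p = 0.05695) and without 8w-WT replicate 1 (adjusted p = 0.0660). Lect2 averaged 13.71 ± 0.34 in 8w-WT and 14.67 ± 0.47 in 4w-WT, so that the older liver had 51.5% of the level at 4 weeks, a difference of -0.96 (SE 0.22, adjusted p = 0.00554). Tbx3 averaged 6.85 ± 0.30 in 8w-WT and 6.16 ± 0.61 in 4w-WT, a difference of 0.69 (adjusted p = 0.0660), which was called without the high 4w-WT replicate 5 at 0.94 (adjusted p = 0.00174). Axin2 differed by 0.44 (adjusted p = 0.236) and was likewise called without that array at 0.65 (adjusted p = 0.0289). Lgr5 differed by 0.57 (adjusted p = 0.115), Znrf3 by -0.09 (adjusted p = 0.801) and Rgn by -0.30 (adjusted p = 0.199). The median of the 7 genes was 0.44, beside 0.04 for all genes.

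**Figure D3:**
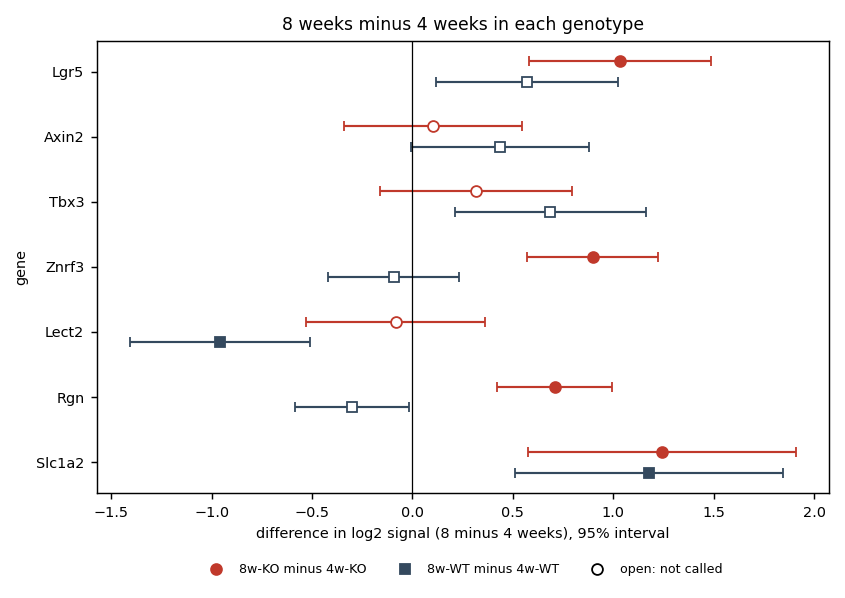
Difference in log2 signal of 8 minus 4 weeks (x axis) for each of the 7 genes (y axis) within KO and within WT liver, with the 95% interval, and open symbols where limma did not call the gene. Znrf3 and Rgn lie at 0.90 and 0.71 in KO and at -0.09 and -0.30 in WT liver, and Lect2 is the gene called lower in WT, at -0.96.

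Ordered by group mean, Lgr5, Axin2, Tbx3 and Slc1a2 ran in the same sequence from low to high, 4w-KO, 4w-WT, 8w-KO and 8w-WT. Among neighbours in that sequence only 8w-KO and 8w-WT for Slc1a2 had arrays that did not overlap, with means 0.95 apart. Znrf3 ran 4w-KO, 8w-WT, 4w-WT and 8w-KO, with a gap of 0.57 between the arrays' means of 4w-KO and 8w-WT, whose arrays did not overlap, and overlap between the other neighbours. Rgn ran 4w-KO, 8w-WT, 8w-KO and 4w-WT, with a gap of 0.54 between the means of 4w-KO and 8w-WT, again without overlap, and overlap above that. Lect2 ran in another sequence, 8w-WT, 8w-KO, 4w-KO and 4w-WT, and each pair of neighbours overlapped. Across the 20 arrays, after the group means were taken out, the genes that moved together most were Lect2 and Rgn (Pearson r = 0.67), Lgr5 and Znrf3 (r = 0.53) and Znrf3 and Rgn (r = 0.48). Lgr5 with Axin2 and Lgr5 with Tbx3 were near 0 (r = 0.01 and -0.01). These values describe 20 arrays that share group, tissue composition and array order, and no p-value is given. Lect2, Rgn, Lgr5 and Znrf3 were each at their lowest 4w-WT value in replicate 4, an array with muscle transcripts. The part of that array in these r values was not tested.

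The genes whose log2 signal was most like that of each of the 7 over the 20 arrays were taken from 10533 genes with a mean above background. For Lgr5 they were Pard3 (r = 0.91), Fzd5 (r = 0.89) and Pde3b (r = 0.87). For Axin2 they were Kdm5b (r = 0.80), Eva1a (r = 0.78) and Fzd7 (r = 0.75), and Fzd7 (r = 0.80) also led for Tbx3, before Prox1 (r = 0.79) and Cebpa (r = 0.78). Fzd5 and Fzd7 encode Frizzled receptors for Wnt ligands. For Znrf3 they were Fgfr4 (r = 0.85), Ankmy2 (r = 0.83) and Suclg2 (r = 0.82). For Rgn they were Etfdh (r = 0.86), Sesn3 (r = 0.85) and Zdhhc20 (r = 0.83). Lect2 had the weakest matches, Ces1g (r = 0.76), Cyp4a10 (r = 0.74) and Nudcd2 (r = 0.73), and Slc1a2 the strongest, Abhd3 (r = 0.92), Xpr1 (r = 0.91) and Mfsd4b1 (r = 0.91). With the group means taken out, each of these r values was lower, and the lowest was 0.28 for Rgn with Sesn3.

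The rest of the pathway was read from lists of genes by role. Among Wnt receptors and co-receptors 3 of 17 were called lower and 0 higher in 4w-KO than in 4w-WT liver. Of all genes 10.2% were called in that comparison and 5.48% were called lower. Lgr4, the R-spondin receptor related to Lgr5, averaged 12.58 ± 0.21 in 4w-KO and 13.34 ± 0.11 in 4w-WT, a difference of -0.76 (limma adjusted p = 0.00113). The Frizzled receptor Fzd8 differed by -1.32 (adjusted p = 0.00792) and the co-receptor Lrp5 by -0.68 (adjusted p = 0.0106). Tcf7l2, a TCF/LEF factor that partners β-catenin in hepatocytes, averaged 9.74 ± 0.11 in 4w-KO and 10.44 ± 0.15 in 4w-WT, a difference of -0.70 (adjusted p = 4.87e-04). Of the 19 measured genes of the β-catenin core Pygo1, a co-activator of β-catenin, was also called lower and the kinase Gsk3b higher, at -1.04 (adjusted p = 3.78e-04) and 0.48 (adjusted p = 0.0208), the Gsk3b call being lost under 4 of 17 alternatives. Wnt ligands, R-spondins and secretion factors had 0 of 24 called by limma at 4 weeks, with 3 at an unadjusted p below 0.05. Of these 24 genes 8 had a mean above background in 4w-KO and 7 in 4w-WT liver. Of 14 secreted inhibitors 1 was called lower, the Wnt deacylase Notum, at -0.71 (adjusted p = 0.0368), a call lost under 8 of 17 alternatives.

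At 8 weeks, of all genes called between the labelled groups, 75% were higher in 8w-KO, or 52.9% with array medians set equal, and the pathway calls are read against that share. The genes called were 6.58% of all genes tested. Wls, the carrier that brings Wnt ligands to the cell surface, averaged 9.10 ± 0.66 in 8w-KO and 7.41 ± 0.39 in 8w-WT, a difference of 1.69 (limma adjusted p = 1.99e-04), the 1 called of 24. Fzd1 averaged 8.58 ± 0.67 in 8w-KO and 6.58 ± 0.37 in 8w-WT, a difference of 1.996 (adjusted p = 7.76e-05). Lgr4 was again lower, at -0.47 (adjusted p = 0.0451), a call lost under 10 of 17 alternatives, so the receptors had 1 higher and 1 lower of 17. Secreted inhibitors had 2 of 14 called higher, Dkk3, of the Dickkopf family, at 1.92 (adjusted p = 9.91e-05) and the Frizzled-related protein Frzb at 1.41 (adjusted p = 2.38e-04). In the β-catenin core 1 of 19 was called higher, the casein kinase Csnk1e at 0.76 (adjusted p = 0.0299), lost under 7 of 17 alternatives. These groups also differed in the cholangiocyte and stellate markers given above, and the part of those cells in the pathway values was not tested.

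With age, Tcf7l2 was called higher in both genotypes, by 1.67 in KO (limma adjusted p = 5.97e-09) and by 1.28 in WT liver (adjusted p = 1.91e-07). Of all genes 14.6% were called over age in KO, 7.85% were called higher there, and 8.94% were called in WT. In KO liver 5 of 17 receptors were called higher at 8 than at 4 weeks and 0 lower, among them Fzd1 at 1.82 (adjusted p = 9.43e-05), Fzd8 at 1.70 (adjusted p = 6.71e-04) and Ryk at 0.75 (adjusted p = 0.00105). Ror1, which was not above background in 4w-KO, was at least 0.91 higher in 8w-KO. In WT liver 1 of 17 was called, Lrp5, lower by -0.67 (adjusted p = 0.0124). The ligand list had 3 of 24 called higher in KO, led by Wls at 1.08 (adjusted p = 0.00542), and 1 lower in WT, the R-spondin Rspo3 at -0.82 (adjusted p = 0.0109). The β-catenin core had 3 of 19 called higher in KO, and 2 higher and 1 lower in WT. Secreted inhibitors had 1 of 14 called in each genotype, Dkk3 higher in KO by 1.42 (adjusted p = 9.23e-04) and Frzb lower in WT by -0.83 (adjusted p = 0.0152, lost under 1 of 17 alternatives).

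Other Wnt target and feedback genes were called at 16.7% at 4 weeks and 8.33% at 8 weeks, beside 10.2% and 6.58% of all genes. At 4 weeks 1 of 12 was called higher in KO, the transcription factor Myc at 1.99 (limma adjusted p = 0.00343), and 1 lower, Notum, counted above as an inhibitor. At 8 weeks 1 of 12 was called, the receptor Tnfrsf19, at 1.17 (adjusted p = 1.54e-05). Between the ages 2 of 12 were called higher in KO, the homeobox factor Prox1 at 1.14 (adjusted p = 0.00885) and Tnfrsf19 at 0.55 (adjusted p = 0.00928, lost under 1 of 17 alternatives), and 0 in WT by limma, with 4 at an unadjusted p below 0.05.

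At 4 weeks 28.6% of the pericentral genes outside the 7 were called, beside 10.2% of all genes. These pericentral genes moved both ways, with 4 of 21 called lower and 2 higher in KO. The lower ones included Cyp27a1, a sterol hydroxylase, at -0.89 (limma adjusted p = 0.00247) and the nuclear receptor Nr1i3 at -1.47 (adjusted p = 0.00575). The glutathione transferase Gstm3 was higher by 3.05 (adjusted p = 3.54e-07) and Cyp2a5 by 1.11 (adjusted p = 0.00849). Periportal genes, which mark the opposite end of the lobule, had 5 of 21 called lower and 1 higher, with Sfxn1 at -1.09 (adjusted p = 9.22e-04) and Cyp2f2 at -1.08 (adjusted p = 0.00227) among the lower ones. The median difference was -0.33 over the pericentral list and -0.45 over the periportal list, beside -0.55 for the 7 genes. At 8 weeks Gstm3 at 1.84 (adjusted p = 7.85e-05) and Cyp2c37 at -0.996 (adjusted p = 0.0475, lost under 13 of 17 alternatives) were the pericentral calls, and limma called 0 of 21 periportal genes, with 3 at an unadjusted p below 0.05.

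**Figure D4:**
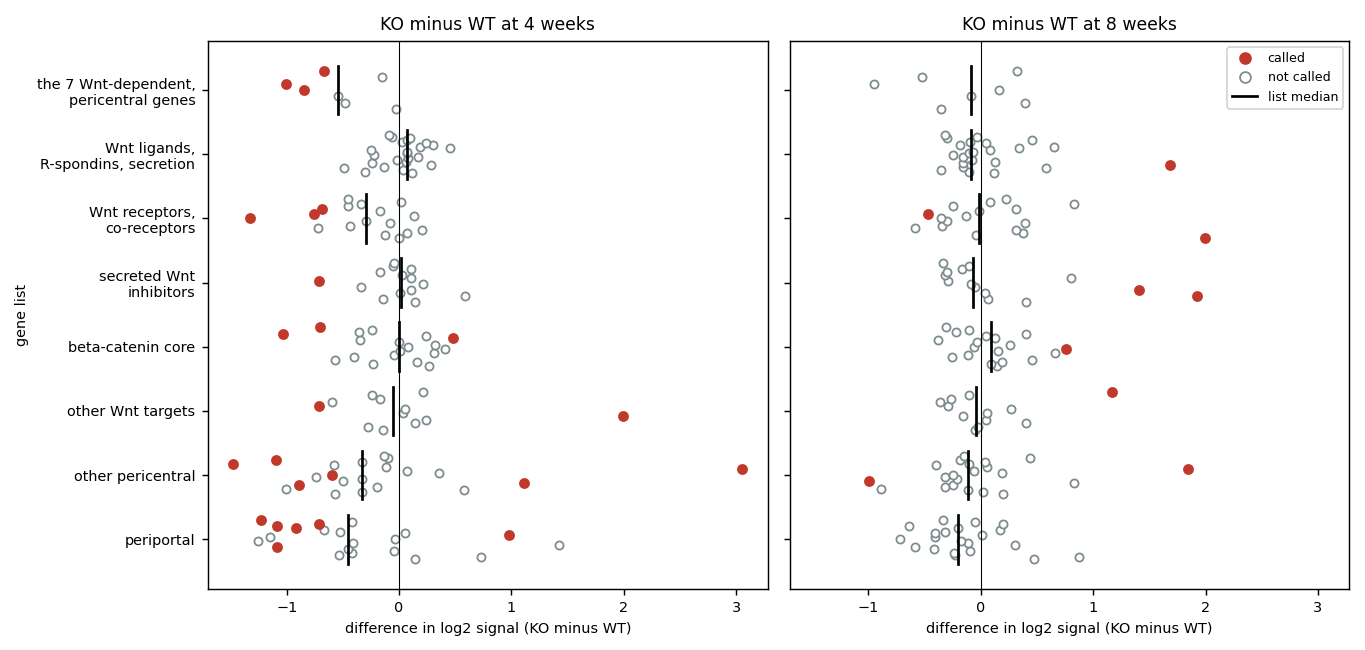
Difference in log2 signal of KO minus WT liver at 4 weeks (left) and 8 weeks (right) for single genes (points, filled where limma called the gene), by gene list, with black lines at the list medians. At 4 weeks the medians of the 7 genes, the other pericentral genes and the periportal genes lie at -0.55, -0.33 and -0.45, and at 8 weeks they lie at -0.08, -0.11 and -0.20.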

How the data were processed

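RNA of 20 mouse livers, 5 per group, was hybridised to Clariom S Mouse arrays. Per the submitters' processing notes the authors used Affymetrix Expression Console with RMA, and no versions are stated in the sources used here. Deposited values are log2 signals, from 2.32 to 19.85 with 254 to 288 features per array above 16, and were used without further scaling. Of 22206 features 19572 had 1 gene symbol, and 2634 had none and were left out. For 55 symbols with several features the one with the highest mean was kept. That took out 67 features, and 19505 genes were tested. Each of the 7 genes had 1 feature. Precision is limited by the number of arrays. The labels name no batches. The titles number the arrays group by group, so that group and array order cannot be told apart. The lowest correlation of 2 arrays of a group was 0.976, and none were identical.

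A model with 1 mean per group was fitted in limma 3.58.1 (R 4.3.3, lmFit and eBayes, 16 residual degrees of freedom), with Benjamini-Hochberg adjustment of p-values over all genes. Comparisons were KO against WT at each age, their difference, and 8 against 4 weeks in each genotype. The script was tested on simulated data. Where a group mean was at or below the background level, the difference is stated as "at least" with that level in its place.

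The members and the gene lists were chosen with earlier results of these data known, and lists are described by counts and medians with no test. Named were the 7 genes, Ogt, up to 4 called genes of each list with the smallest adjusted p, and for likeness the 3 genes with the highest Pearson r, leaving out Gm-number and Rik symbols. Skeletal muscle markers, 10 genes, had 0 called by limma in every comparison, with 3 at an unadjusted p below 0.05 in KO over age and 0 in the others. Alternatives were equal array medians, repeated quantile normalization, a filter on the dimmest 25% of genes, the replicate number as a block, a fit of the compared groups alone, moderation with trend and robust settings, leaving out the 3 arrays with Acta1 above 10, and leaving out each array in turn. Promoters came from RefSeq tables of GRCm38.p6, and coordinates of the array features were not used here.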

Additional observations from a re-analysis of the deposited data

Results flagged for a closer look

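The difference between KO and WT liver changed between the ages, by limma's interaction term at an adjusted p below 0.05, for 2 of the 7 genes, for Ogt and for 14 genes of the other lists. Of all genes 3.05% were called. In the Wnt lists the calls were 2 of 24 ligands and secretion factors, 2 of 17 receptors and 1 of 14 inhibitors. The core had 2 of 19 and the other targets 1 of 12. Endothelial markers had 1 of 11, cholangiocyte markers 2 of 9 and stellate and fibroblast markers 3 of 10. Limma called 0 of 21 other pericentral and 0 of 21 periportal genes, with 5 and 3 at an unadjusted p below 0.05. Each value below is the KO minus WT difference at 8 weeks minus that at 4 weeks, in log2 units. Znrf3 had 0.99 and Rgn 1.01. Ogt itself had 1.16, and this call was lost in 7 of 26 alternatives, each with 1 array left out (adjusted p from 0.0514 to 0.0605). In the Wnt pathway Rspo3 had 1.08, Wls 1.41, Fzd1 1.996, Lrp5 1, Frzb 1.30, Bcl9 1.03, Pygo1 1.44 and Tnfrsf19 0.96. Of these the calls of Wls, Rspo3 and Bcl9 were lost in 14, 13 and 12 of 26 alternatives. Among markers of other cell types Stab2 had 1.26, Epcam 3.62, Krt19 2.21, Pdgfrb 2.82, Dcn 1.04 and Lum 3.16. Epcam was not above background in 8w-WT and Bcl9 not in 4w-KO, so their values rest in part on signals at that level. The calls of Krt19 and Dcn were lost in 18 and 12 of 26 alternatives. No array of the 7 genes or Ogt stood apart from the other 4 of its group by Dixon's 95% criterion for 5 values, 0.71. With 5 values only a wide gap meets this criterion, so it clears no array. It did not mark 4w-WT replicate 5, without which the 4-week differences of Axin2 and Tbx3 changed sign.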

How the results depend on the processing

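Of 11 calls among the 7 genes 9 held under every alternative tried, and both that did not were those of Slc1a2, KO against WT at 4 weeks and 8 against 4 weeks in WT. At 4 weeks the Slc1a2 adjusted p was 0.0558 after repeated quantile normalization, 0.0535 with trend and robust moderation and 0.104 with the 4-week arrays alone. At 8 weeks 1 of the 7 genes, Slc1a2, was called with the 8-week arrays alone and without the 3 muscle arrays. Of all 19505 genes 864 were then called higher and 249 lower with the 8-week arrays alone, and 1047 and 349 without the muscle arrays, beside 963 and 321. In WT over age 4 of the 7 genes were called after quantile normalization, 1 with the WT arrays alone and 1 without the muscle arrays, and 1 to 4 when single arrays were left out. Of all 19505 genes 919 were called higher and 939 lower after quantile normalization. These numbers were 681 and 1106 with the WT arrays alone, and 488 and 859 without the muscle arrays. With single arrays left out 1293 to 1719 genes were called, beside 1744 with all arrays. Genes with a called interaction numbered 385 to 747 when single arrays were left out, and 385 without 8w-KO replicate 1, beside 595 with all arrays. Among values that were not called, the 4-week difference of Tbx3 was 0.0125 without the muscle arrays. With single arrays left out the sign changed for Axin2 at 4 weeks (-0.13 to 0.19), Tbx3 at 4 weeks (-0.27 to 0.10), Lgr5 at 8 weeks (-0.21 to 0.075), the Slc1a2 interaction (-0.0945 to 0.4205), Axin2 in KO over age (-0.0215 to 0.1985) and Lect2 in KO over age (-0.2255 to 0.0095). With array medians set equal, 34.7% of the genes called at 4 weeks were higher, beside 46.2% on the deposited scale, and 52.9% at 8 weeks, beside 75%. The cause was not tested.

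Replicate numbers were not used to pair the samples. Same-numbered arrays had deviations correlated by -0.18 to 0.48, and not every array was most like its own number. Between KO and WT at 4 weeks each same-number r was above the median r with other numbers. The widest margin was that of number 4, at 0.48 against -0.18, and both of its arrays carried muscle transcripts. Number 2 had 0.32 against 0.13. Numbers 1, 3 and 5 had 0.139 against 0.133, 0.159 against 0.125 and -0.146 against -0.165. With 5 arrays per group the check cannot decide whether the numbers pair samples. With the replicate number as a block, 4 of the 7 genes were called at 4 weeks, Lgr5 being added (adjusted p = 0.0446), 0 at 8 weeks, 2 for the interaction, 3 in WT over age, with Lgr5 added (adjusted p = 0.0388), and 4 in KO over age. Of 19505 genes 1804 were then called at 4 weeks, 1170 at 8 weeks, 488 for the interaction, 1626 in WT over age and 2650 in KO over age. Without the block these calls numbered 1985, 1284, 595, 1744 and 2855, or 10.2%, 6.58%, 3.05%, 8.94% and 14.6% of all genes.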

Other observations

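Over age 14.6% of all genes were called in KO and 8.94% in WT liver. Periportal genes were called at 47.6% in KO and 19% in WT, and pericentral genes outside the 7 at 28.6% and 14.3%. In KO liver 8 of 21 periportal genes were called higher at 8 than at 4 weeks and 2 lower by limma, led by Pigr, the receptor that carries immunoglobulin into bile, with 16.60 ± 0.26 in 8w-KO and 13.32 ± 0.78 in 4w-KO (SD, n = 5 each), a difference of 3.27 (adjusted p = 8.36e-08). Cyp2f2 followed at 1.32 (adjusted p = 2.43e-04), G6pc, the last step of glucose release, at 2.25 (adjusted p = 9.98e-04), and Hsd17b6 was lower, at -1.75 (adjusted p = 3.32e-04). In WT liver 2 of 21 were called higher and 2 lower, with Pigr again first at 2.55 (adjusted p = 2.12e-06) and Hsd17b6 again lower at -1.29 (adjusted p = 0.00702). Of 21 other pericentral genes 4 were called higher and 2 lower in KO over age, with Cyp27a1 at 1.42 (adjusted p = 1.55e-05) and Oat, the ornithine aminotransferase, at 1.09 (adjusted p = 0.00277). Gstm3 was lower in both genotypes, by -2.50 in KO (adjusted p = 8.65e-07) and -1.28 in WT (adjusted p = 0.00186), so the list moved both ways. In WT 2 of 21 were called higher and 1 lower.

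Endothelial markers, from cells that include the source of Wnt ligands, had 1 of 11 called lower at 8 than at 4 weeks in KO liver and 5 of 11 in WT liver, with mean levels of 7.47 to 8.29 in 8w-WT and 8.62 to 9.13 in 4w-WT. Stellate and fibroblast markers had 2 of 10 called higher and 1 lower in KO over age, and 4 lower in WT. Cholangiocyte markers had 6 of 9 called higher in KO over age and 0 in WT by limma, where 2 had an unadjusted p below 0.05. Macrophage markers had 2 of 9 called higher and 3 lower in KO, and 1 higher and 3 lower in WT. At 4 weeks 1 of 9 cholangiocyte markers, Tspan8, was called higher in KO by 2.51 (adjusted p = 0.0177), a call lost under 2 of 17 alternatives.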
